A study of Mus musculus with 4 samples.

Results

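A set of 10 established target genes of the transcription factor p53 were followed in 32Dcl3-Abl1ko cells that grew with or without interleukin 3 (IL-3). The genes were chosen by name as Mdm2, Ccng1, Phlda3, Zmat3, Trp53inp1, Aen, Sesn2, Plk2, Btg2 and Tnfrsf10b, and all 10 were among the 23756 genes of the deposited table. After a filter on low counts 16535 genes were tested, with 9 of the 10 targets among them, and Plk2 did not pass. The 32Dcl3 line is a murine hematopoietic line that depends on IL-3, a cytokine that keeps early blood cells alive and dividing. Both groups carried Abl1 edited by CRISPR/Cas9 from the lentiviral vector lentiCRISPRv2, in cells chosen as single clones. Abl1 encodes the ABL1 tyrosine kinase. RNA-seq was available for 2 Abl1ko/IL3+ libraries and 2 Abl1ko/IL3- libraries, the second group from cells that had become able to grow after gradual withdrawal of the cytokine. The sources do not say which clone or guide gave which library, and 32Dcl3-Abl1 cells with intact Abl1 were not analysed here. The question addressed was which of these genes differed between Abl1ko cells with and without IL-3.

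p53 is a DNA-binding factor that is held at a low level by the ubiquitin ligase MDM2 and accumulates after DNA damage, oncogene activity or other stress. It then switches on genes that arrest the cell cycle, repair DNA, restrain growth signalling or start apoptosis, and it also switches on Mdm2, which closes a negative feedback loop. In blood-forming cells the pathway is known for limiting the survival of damaged progenitors, and ABL1 has been linked to the DNA damage response upstream of it. A library of bulk RNA reports RNA per cell and the number of cells of each type together, and these cannot be told apart in the levels below.

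The deposited counts summed to between 48953174 and 60382588 per library. The limit that a count of 0 allows, 3 counts, corresponded to between 0.0465 and 0.0627 CPM. CPM stands for read counts scaled to a common library total with TMM, a factor that corrects for the composition of each library. Limits of this kind cover counting error only and take each count as an independent read. Abl1 itself had 1322 and 2222 counts in Abl1ko/IL3+ replicates 1 and 2 and 1544 and 2256 counts in Abl1ko/IL3- replicates 1 and 2, and small edits by Cas9 need not lower the RNA, so this level does not check the labels. The labels call the cells murine bone marrow cells and pre-B cells. Myeloid progenitor markers summed to between 1881 and 4703 CPM and the 6 pre-B markers in the table to between 19.0 and 26.0 CPM. Rag1 was at 0 to 4 counts. Of the other pre-B markers, Cd79b was at 607 to 1044 counts, Cd79a at 43 to 635 and Vpreb1 at 57 to 157. Most of the myeloid sum came from Mpo, Csf2rb, Csf2rb2 and Ms4a3. Of the same list, Kit was also at 0 to 4 counts and Cd34 at 14 to 30 counts. By summed level the markers thus went against the pre-B label, though not every myeloid progenitor marker was present and some pre-B markers were. The Abl1ko/IL3+ replicates stood apart from each other: the median absolute gap over all genes tested was 0.736 log2 units between them and 0.360 between the Abl1ko/IL3- replicates, on the log2(CPM + 0.1) scale.

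**Figure D1:**
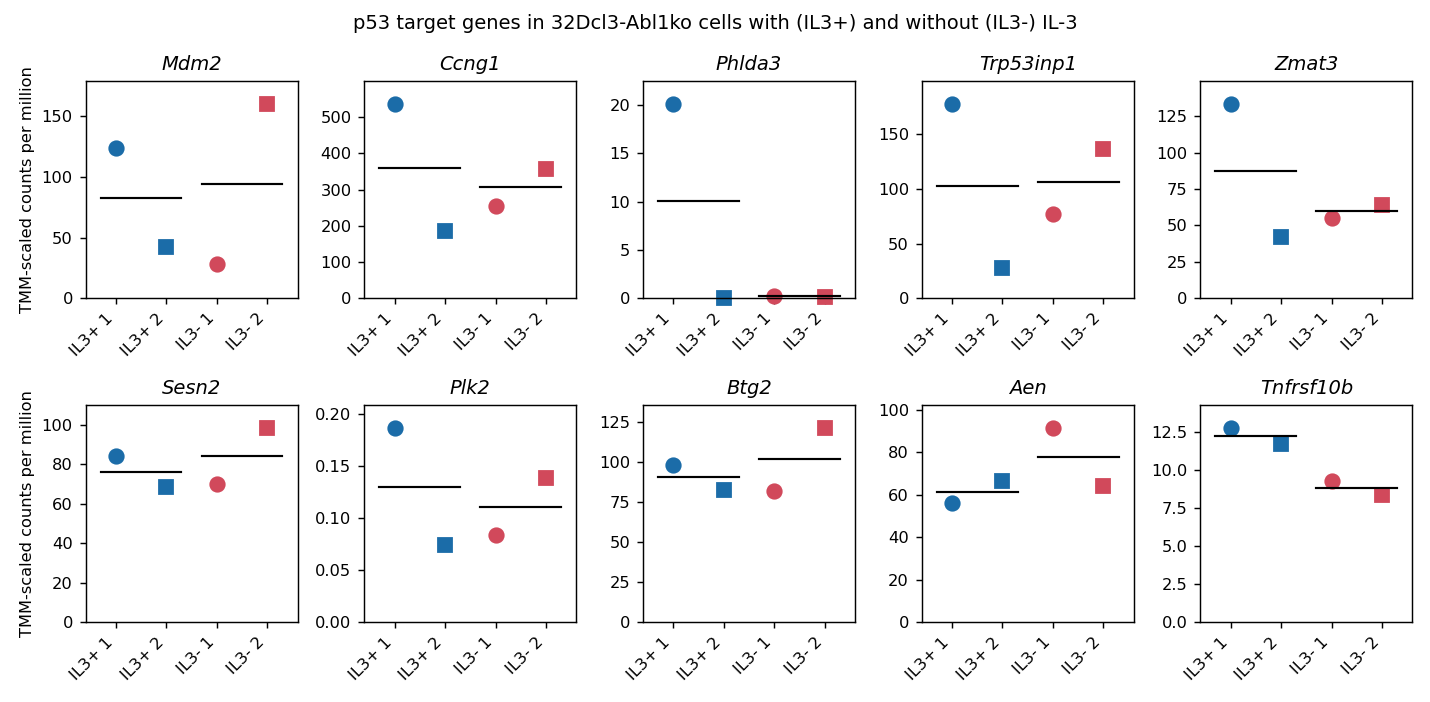
TMM-scaled CPM of the 10 p53 target genes in each library, one panel per gene with its own linear axis from 0. Blue points are Abl1ko/IL3+ and red points Abl1ko/IL3-, circles are replicate 1 and squares replicate 2, and black lines are group means (n = 2). Abl1ko/IL3+ replicate 1 is the highest library for Ccng1, Phlda3, Trp53inp1, Zmat3, Plk2 and Tnfrsf10b, and in Tnfrsf10b alone do both Abl1ko/IL3- points lie below both Abl1ko/IL3+ points.

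p53 binds DNA as a tetramer, and each dimer reads a 10-base sequence around a CNNG core with A or T at both N. A full response element joins a pair of these. Promoter sequence from RefSeq (GRCm38.p6) was given for 7 of the 10 genes, and the 250 bases before the transcription start were searched for the p53 consensus decamer, which is its own reverse complement, so that both strands were read together. An exact 10-base match was found in Mdm2, Ccng1 and Aen, that is in 3 of 7 genes, and in 7.13% of all 32851 promoter windows. No member window held a pair of exact matches with a spacer of up to 13 bases, which 0.0639% of all windows did. A 20-base site with up to 3 mismatches, none of them at the C or G of either core, was found in Ccng1 and Aen and in 1.14% of all windows. In both genes it contains the 10-base match. The stretches are shown because they are where the members carry p53-like sequence close to their start, and capitals mark the 10-base match in Mdm2 and the 20-base match in Ccng1 and Aen.
Mdm2: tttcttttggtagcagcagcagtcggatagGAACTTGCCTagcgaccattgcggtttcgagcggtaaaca
Ccng1: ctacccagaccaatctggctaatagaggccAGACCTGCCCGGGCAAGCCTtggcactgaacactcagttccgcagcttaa
Aen: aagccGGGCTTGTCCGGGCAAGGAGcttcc

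The Mdm2 stretch lies at chr10:117710905-117710974 on the minus strand, with the capitals 186 to 177 bases before the start. The Ccng1 stretch lies at chr11:40755432-40755511 on the minus strand, and its capitals, with 1 mismatch, run from 195 to 176 bases before the start. The Aen stretch lies at chr7:78895932-78895961 on the plus strand, and its capitals, with 3 mismatches, run from 121 to 102 bases before one of its RefSeq starts, where GENCODE M21 annotates an exon of Aen that begins further upstream. The window of the other Aen start, which lies upstream of this site, held no match. The windows of Btg2, Phlda3, Sesn2 and Plk2 held no such match, which says only that these letters were not found there, and Zmat3, Trp53inp1 and Tnfrsf10b are only named. A match is a description of the sequence and not of binding.

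None of the 9 tested p53 target genes differed between Abl1ko/IL3- and Abl1ko/IL3+ cells at an adjusted p under 0.05 (edgeR quasi-likelihood test, Benjamini-Hochberg), and 0% of the 16535 genes tested did. The lowest adjusted p over all genes was 0.335. At an unadjusted p under 0.05, 0 of 9 members and 5.91% of all genes passed. DESeq2 called 0 of 9 members and 1.64% of all genes at an adjusted p under 0.05. The log2 fold change, Abl1ko/IL3- over Abl1ko/IL3+, was above 0 for 5 members and below 0 for 4, with a median of 0.061 beside -0.027 over all genes. With 1 library left out the direction turned for 7 of the 9, and it did not turn for Aen, which ranged from 0.065 to 0.58, and Tnfrsf10b, which ranged from -0.56 to -0.39. Turns of direction were not counted over all genes, so the 7 of 9 cannot be read as a trait of the members. What set the members apart from one another was how far they differed between replicates of one group.

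**Figure D2:**
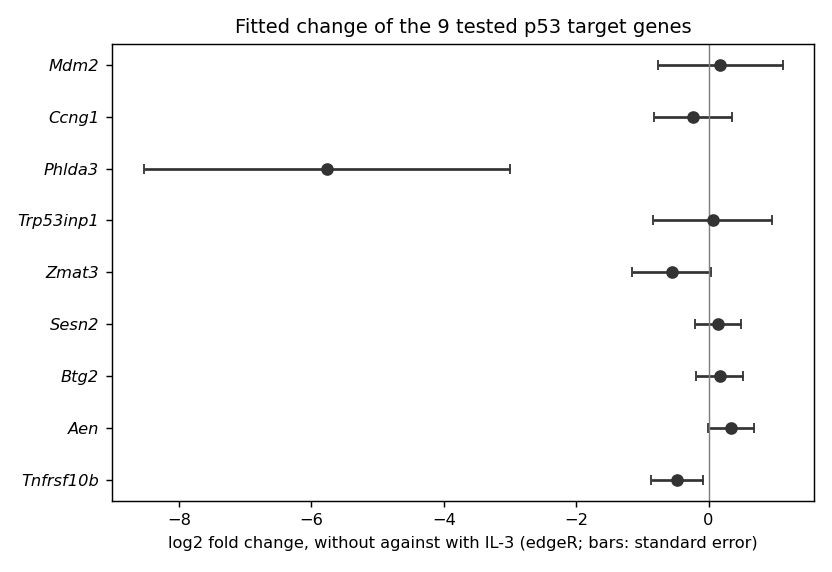
Log2 fold change of the 9 tested p53 target genes, Abl1ko/IL3- against Abl1ko/IL3+, as fitted by edgeR on 2 libraries per group, with bars of 1 standard error. The values lie between -0.55 and 0.34 except for Phlda3 at -5.76 with a standard error of 2.77, and no gene passed the adjusted threshold.

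The feedback regulators came first. Mdm2 (ENSMUSG00000020184, GRCm38 chr10:117688875-117710758, minus strand) encodes the ligase that marks p53 for destruction. Its level was 124 and 42.2 CPM in Abl1ko/IL3+ replicates 1 and 2, and 28.2 and 159.9 CPM in Abl1ko/IL3- replicates 1 and 2. Each group held one high and one low library, so the groups overlapped fully. The gap was 2.94-fold between the Abl1ko/IL3+ replicates and 5.66-fold between the Abl1ko/IL3- replicates, in opposite order of replicate number. The fitted log2 fold change was 0.18 ± 0.94 (SE, adjusted p = 0.994, edgeR). It was -1.55 without Abl1ko/IL3- replicate 2, -0.40 without Abl1ko/IL3+ replicate 2 and 1.17 without Abl1ko/IL3+ replicate 1.

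Ccng1 (ENSMUSG00000020326, chr11:40748552-40755311, minus strand) encodes cyclin G1, which recruits a phosphatase to MDM2. It stood at 536 and 185 CPM with IL-3 and at 255 and 358 CPM without. Abl1ko/IL3+ replicate 1 was the highest library, replicate 2 the lowest, and both Abl1ko/IL3- libraries lay between them. The replicates with IL-3 differed 2.90-fold and those without 1.40-fold. The log2 fold change was -0.23 ± 0.58 (SE, adjusted p = 0.982, edgeR), -0.042 and -0.039 with limma on log2(FPKM + 1) and log2(FPKM + 0.1), and 0.75 without Abl1ko/IL3+ replicate 1. Per length Ccng1 was the most abundant of the 10 genes in every library, at 146.7, 42.1, 62.1 and 94.3 FPKM in the same order.

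Trp53inp1 (ENSMUSG00000028211, chr4:11156431-11174379, plus strand) encodes a stress-induced nuclear protein that promotes p53 activity and also takes part in autophagy. Its levels were 178 and 27.3 CPM with IL-3 and 76.8 and 137 CPM without. The order of the libraries was that of Ccng1, with Abl1ko/IL3+ replicate 1 on top and replicate 2 at the bottom. These 2 libraries differed 6.51-fold, a gap larger than that of 95.9% of all genes tested. The fitted difference between the groups was 0.061 ± 0.89 on the log2 scale (SE, adjusted p = 0.999, edgeR). It was between 0.47 and 0.57 with limma on FPKM or with a replicate block, none of which called the gene, and it was 1.99 without Abl1ko/IL3+ replicate 1 and -0.73 without Abl1ko/IL3+ replicate 2.

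Of the members that restrain growth signalling, Phlda3 (ENSMUSG00000041801, chr1:135766119-135769136, plus strand) encodes a pleckstrin-homology protein that competes with AKT for membrane lipids. The cells with IL-3 gave 1295 and 0 reads and those without gave 11 and 8, or 20.1, 0, 0.230 and 0.138 CPM. One Abl1ko/IL3+ library expressed the gene, and the other 3 libraries were near the limit of 3 counts. With the floor of 3 counts in replicate 2, Abl1ko/IL3+ replicate 1 was at least 364.1-fold higher than replicate 2, if counts are independent reads. It was 87.4-fold and 146-fold higher than Abl1ko/IL3- replicates 1 and 2. Among all genes tested, 7 had a larger gap between the Abl1ko/IL3+ replicates. The fitted log2 fold change of -5.76 ± 2.77 (SE, unadjusted p = 0.0922, adjusted p = 0.860, edgeR) therefore rested on a single library. It was -2.49 with the replicate block, and -1.73 and -2.50 with limma on log2(FPKM + 1) and log2(FPKM + 0.1). Without Abl1ko/IL3+ replicate 1 the remaining libraries held 0, 11 and 8 counts and the fitted sign turned. Of the 12 tested genes with a start within 500 kb of Phlda3, 9 had more than 3 counts in both Abl1ko/IL3+ libraries, and their CPM in replicate 1 was between 0.147 and 2 times that in replicate 2. The 0.147 came from Gm37333, with only 4 and 23 counts, and the next lowest was Csrp1 at 0.405 with 6934 and 14455 counts. The other 3 of the 12 were at 0 in one of the Abl1ko/IL3+ libraries and had at most 17 counts in the other. By length-scaled values Phlda3 reached 12.4 FPKM in Abl1ko/IL3+ replicate 1, above Aen and Zmat3 in that library at 9.33 and 11.2 FPKM.

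Sesn2 (ENSMUSG00000028893, chr4:132492032-132510501, minus strand) encodes sestrin 2, a leucine sensor that holds mTORC1 in check and is also induced by ATF4. Its levels were 84.2 and 68.4 CPM with IL-3 and 69.9 and 98.5 CPM without. All 4 libraries lay within a 1.44-fold range and the groups overlapped. The log2 fold change was 0.14 ± 0.34 (SE, adjusted p = 0.981, edgeR). It was -0.12 without Abl1ko/IL3- replicate 2.

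Zmat3 (ENSMUSG00000027663, chr3:32334792-32366014, minus strand) encodes a zinc-finger RNA-binding protein that acts on splicing and RNA stability in the p53 programme. It was measured at 133 and 42.0 CPM with IL-3 and at 55.3 and 64.1 CPM without. Again one Abl1ko/IL3+ replicate was the highest and the other the lowest, 3.17-fold apart, while the Abl1ko/IL3- replicates differed only 1.16-fold. The log2 fold change was -0.55 ± 0.60 (SE, adjusted p = 0.942, edgeR). It was -0.33 with the replicate block and 0.52 without Abl1ko/IL3+ replicate 1.

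Btg2 (ENSMUSG00000020423, chr1:134075170-134079120, minus strand), an antiproliferative cofactor of the CCR4-NOT deadenylase, had 98.2 and 82.4 CPM with IL-3 and 81.9 and 121 CPM without. The groups overlapped within a 1.48-fold range. Its log2 fold change was 0.17 ± 0.35 (SE, adjusted p = 0.980, edgeR), and -0.13 without Abl1ko/IL3- replicate 2. Plk2 (ENSMUSG00000021701, chr13:110395046-110400844, plus strand), a polo-like kinase of the G1 phase and of centriole duplication, gave 12 and 4 reads in cells with IL-3 and 4 and 8 in cells without. It was near the limit of detection in all 4 libraries and was not tested. Both libraries without IL-3 lay between those with IL-3 on the CPM scale, at 0.0836 and 0.138 between 0.0736 and 0.186.

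Aen and Tnfrsf10b had the smallest gaps between the Abl1ko/IL3+ replicates, at 0.24 and 0.122 log2 units. Btg2 at 0.253 and Sesn2 at 0.298 were close to Aen. Aen (ENSMUSG00000030609, chr7:78895854-78911209, plus strand), a nuclease that enhances apoptosis, had 56.3 and 66.5 CPM with IL-3 and 91.5 and 64.2 CPM without. Abl1ko/IL3- replicate 1 was the highest library and the groups overlapped through replicate 2. Its log2 fold change was 0.34 ± 0.34 (SE, adjusted p = 0.937, edgeR), and 0.065 without Abl1ko/IL3- replicate 1. Tnfrsf10b (ENSMUSG00000022074, chr14:69767472-69784411, plus strand) encodes the mouse death receptor for the ligand TRAIL. It had 12.8 and 11.7 CPM with IL-3 and 9.32 and 8.34 CPM without. Both libraries without IL-3 were below both with IL-3, which no other tested member showed. The log2 fold change was -0.47 ± 0.39 (SE, unadjusted p = 0.283, adjusted p = 0.920, edgeR), so the difference did not pass the test. Of all genes tested, 17.9% were lower in both Abl1ko/IL3- libraries and 19.4% were higher in both, beside 1 and 0 of the 9 members.

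For Ccng1, Phlda3, Trp53inp1 and Zmat3, 4 of 9, both Abl1ko/IL3- libraries lay between the Abl1ko/IL3+ replicates, against 28% of all genes. Abl1ko/IL3+ replicate 1 was the highest library for 5 of 9 members, the same genes and Tnfrsf10b, and for 31.8% of all genes. Abl1ko/IL3+ replicate 2 was the lowest for 5 of 9, the same genes and Sesn2, and for 29.7% of all genes. The gap between the Abl1ko/IL3+ replicates exceeded the gap between group means for 7 of 9 members and for 65.9% of all genes on the log2(CPM + 0.1) scale, and that between the Abl1ko/IL3- replicates for 6 of 9 members and 46.5% of all genes. Where groups do not differ, a gap between single libraries is expected to be wider than one between means. The size of the gap varied among the members: 82.4% of all genes had a smaller one than Mdm2, 82% than Ccng1 and 84.7% than Zmat3, but 21.6% than Sesn2, 18.7% than Btg2, 17.6% than Aen and 9.21% than Tnfrsf10b. The median absolute gap of the 9 tested members was 1.54 between the Abl1ko/IL3+ replicates, the largest of the 6 pairs of libraries, and 0.375 between Abl1ko/IL3+ replicate 1 and Abl1ko/IL3- replicate 2, the smallest. Over all genes the Abl1ko/IL3+ pair was also the farthest apart.

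**Figure D3:**
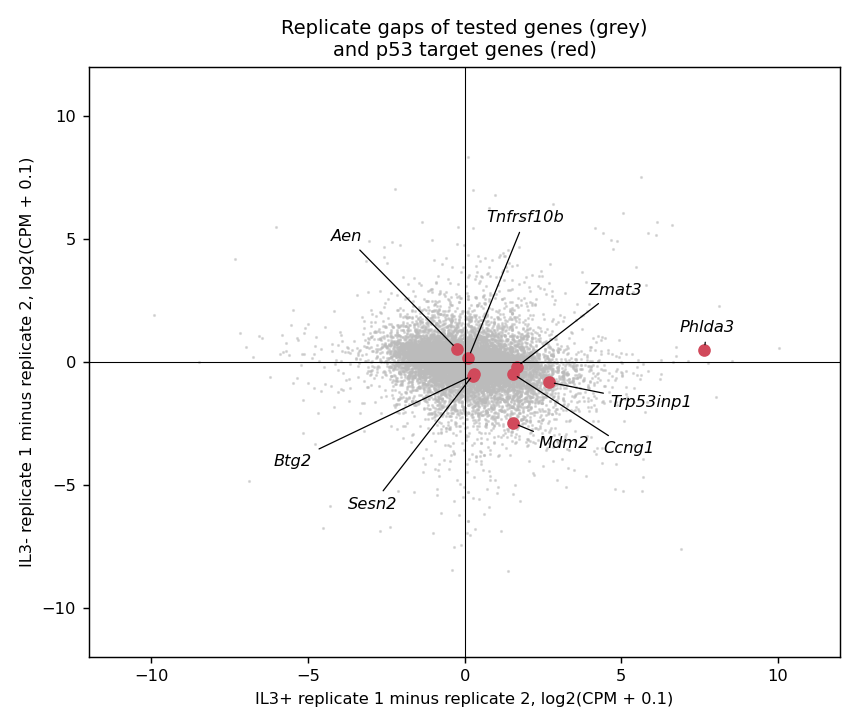
Gap between replicates 1 and 2 of the Abl1ko/IL3+ group (x) and of the Abl1ko/IL3- group (y) on the log2(CPM + 0.1) scale, for all 16535 genes tested (grey) and the 9 tested p53 target genes (red). Phlda3 lies at 7.66 on the x axis, Trp53inp1 at 2.70, and Mdm2, Ccng1 and Zmat3 between 1.54 and 1.66. Aen, Sesn2, Btg2 and Tnfrsf10b lie within 0.30 of 0 on the x axis, and Mdm2 stands apart on the y axis at -2.50.

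The wider pathway was read through lists of genes. Of p53 and its regulators, 19 of the 22 listed genes were in the table and tested, 0 passed the adjusted threshold or an unadjusted p under 0.05 (edgeR), and 5 had a log2 fold change above 0 and 14 below, with a median of -0.31. Over all genes 7946 of 16535 were above 0, with a median of -0.027. Trp53, which encodes p53, had 209.6 and 404 CPM with IL-3 and 173 and 153 CPM without. Both libraries without IL-3 were lower, with a log2 fold change of -0.91 ± 0.43 (SE, adjusted p = 0.855, edgeR). Between the Abl1ko/IL3+ replicates, Trp53 RNA was 1.93-fold higher in replicate 2, the library in which Ccng1, Phlda3, Trp53inp1 and Zmat3 were lowest.

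Mdm4, which encodes the partner of MDM2 that also binds p53, had 289 and 121 CPM with IL-3 and 180.2 and 424 CPM without. Its libraries fell in the same order as those of Mdm2 except that the lowest and next lowest changed places. The log2 fold change was 0.56 (adjusted p = 0.947, edgeR). The largest rise among regulators with groups that did not overlap was in Atr, a kinase of replication stress, at 0.62 (adjusted p = 0.871), and the largest fall in Usp7, a deubiquitinase of MDM2 and p53, at -1.22 (adjusted p = 0.900). Usp7 differed 5.85-fold between the Abl1ko/IL3- replicates, and Atr shares exonic bases with genes on both strands. Neither passed the edgeR test.

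Of 33 other p53 target genes, 32 were in the table and 30 were tested, with 0 past the adjusted threshold and 1 at an unadjusted p under 0.05 (edgeR), beside 5.91% of all genes. Their log2 fold changes were above 0 for 16 and below for 14, with a median of 0.024 beside -0.027 over all genes. The gene that passed unadjusted was Steap3, an endosomal iron reductase, at 42.6 and 49.2 CPM with IL-3 and 0.836 and 2.07 CPM without. All counts without IL-3 were above the limit of detection, and the mean with IL-3 was 31.6-fold higher. Its log2 fold change was -4.98 ± 0.62 (SE, unadjusted p = 0.000492, adjusted p = 0.532, edgeR). The largest rise with groups that did not overlap was in Pidd1, which builds a caspase-2 platform, at 0.99 (adjusted p = 0.854, edgeR).

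Cdkn1a, the gene of the cell-cycle inhibitor p21, had 306 and 292 CPM with IL-3 and 139 and 306 CPM without. The Abl1ko/IL3+ replicates were alike here, 1.05-fold apart, unlike for Ccng1 or Zmat3. Its log2 fold change was -0.43 (adjusted p = 0.942, edgeR). The pro-apoptotic genes Bax and Bbc3 varied little, with log2 fold changes of 0.050 (adjusted p = 0.996) and 0.022 (adjusted p = 0.999), and the death receptor gene Fas gave 0.11 (adjusted p = 0.991). Gadd45a, a damage-induced growth-arrest gene, was higher in both libraries without IL-3, at 62.9 and 92.1 CPM against 41.6 and 45.4, with a log2 fold change of 0.83 ± 0.35 (SE, adjusted p = 0.850, edgeR). Cdkn1a, Bax and Gadd45a share exonic bases with other annotated genes, and no exon of the 10 members is shared with another gene in GENCODE M21.

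Among these other targets, Abl1ko/IL3+ replicate 1 was the highest library for 11 of 30 and replicate 2 the lowest for 10 of 30, near the 31.8% and 29.7% of all genes. Their median signed gap between the Abl1ko/IL3+ replicates was 0.058 log2 units beside 1.54 for the 9 tested members. Several targets, named after their values were seen, had large gaps of the members' kind. Eda2r, a receptor of the tumour necrosis factor family, gave 880 and 4 reads in cells with IL-3 and 0 and 12 in cells without, which is close to the picture of Phlda3. Apaf1, the scaffold of the apoptosome, had 66.1 and 8.28 CPM with IL-3 and 8.65 and 9.94 CPM without. Rrm2b, Trp53cor1 and Polk were 4.84-fold, 3.94-fold and 2.51-fold higher in Abl1ko/IL3+ replicate 1 than in replicate 2. Rrm2b and Trp53cor1 share exonic bases with genes on the other strand. Xpc, a DNA repair gene, was 2.41-fold and Sesn1, a paralogue of Sesn2, 2.01-fold higher in the same comparison. Other targets went the other way, with the largest gaps in Gdf15, at only 11 and 25 counts, and in Fdxr. Fdxr had 29.3 and 59.7 CPM and Gpx1 1405.5 and 2676 CPM in Abl1ko/IL3+ replicates 1 and 2.

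Genes of the cell cycle that fall when p53 is active were read from a list of 16, all tested. At an unadjusted p under 0.05 (edgeR), 1 of them passed, beside 5.91% of all genes. It was Foxm1, a mitotic transcription factor, which was also the largest fall with groups that did not overlap, at -2.57 (adjusted p = 0.841, edgeR). Foxm1 shares exonic bases with other genes on the same strand. It had 24.6 and 3.75 CPM with IL-3 and 1.96 and 2.81 CPM without, and it was the only gene of the list for which Abl1ko/IL3+ replicate 1 was the highest library. The largest rise with groups that did not overlap was in Bub1, a spindle checkpoint kinase, at 0.35 (adjusted p = 0.924). The summed level of the list was 1282 and 2984 CPM with IL-3 and 2279 and 1801 CPM without, so Abl1ko/IL3+ replicate 1 had the lowest and replicate 2 the highest level. The summed level of the 10 members was 1242 and 525.3 CPM with IL-3 and 668.2 and 1011 CPM without, the reverse order of libraries. Ccng1 gave the largest part of this sum in every library. Taken singly, Mdm2, Phlda3, Aen, Sesn2, Btg2 and Tnfrsf10b did not follow this order. The other p53 target genes summed to 2966 and 4179 CPM with IL-3 and 3329 and 3990 CPM without, also lowest in Abl1ko/IL3+ replicate 1. Gpx1 gave the largest part of that sum.

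**Figure D4:**
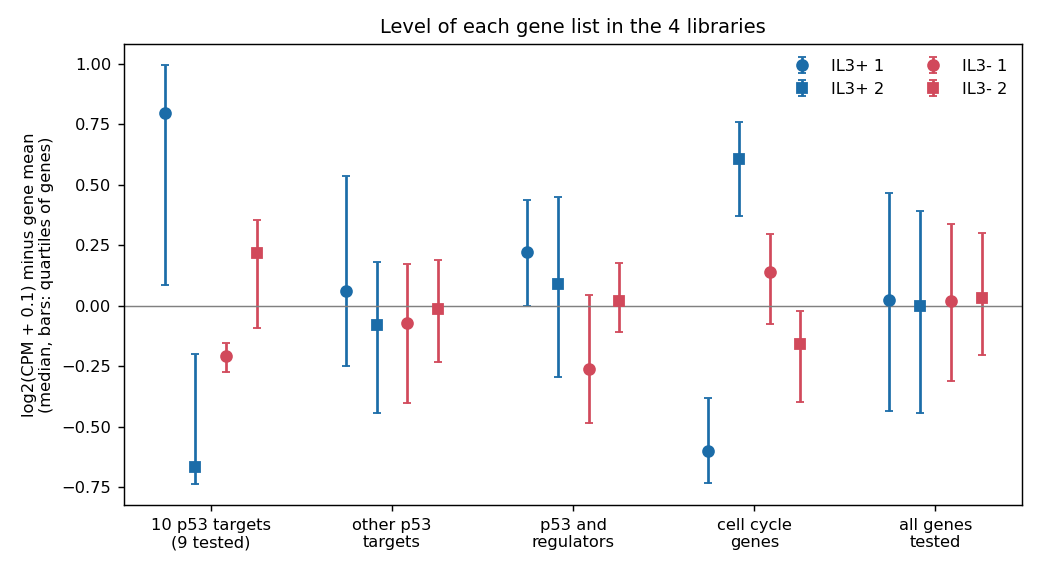
Level of gene lists in each library, as the median over genes of log2(CPM + 0.1) minus the gene's mean over the 4 libraries, with bars from the lower to the upper quartile of genes. The p53 target genes stand at 0.80 in Abl1ko/IL3+ replicate 1 and -0.67 in replicate 2 (blue), the cell cycle genes at -0.60 and 0.61, and the other p53 targets at 0.061 and -0.080.

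Markers of other blood cell types also moved between the Abl1ko/IL3+ replicates. The 10 mast cell and basophil markers summed to 1461 and 253 CPM with IL-3 and 433 and 458 CPM without, so they were high in the library in which the members were high. Abl1ko/IL3+ replicate 1 was the highest library for 5 of the 8 tested markers of this list, and Prss34, Cpa3, Gata2 and Fcer1a carried most of the sum. Mcpt8, a basophil protease, and Ms4a2, a chain of the IgE receptor, went the other way, at 19.0 and 50.4 CPM and at 1.85 and 3.40 CPM in Abl1ko/IL3+ replicates 1 and 2, and Mcpt4 was at 0 in 3 of the 4 libraries. The 10 erythroid and megakaryocyte markers ran the other way, at 950.0 and 8188 CPM with IL-3 and 4454 and 2405 CPM without. Except in Abl1ko/IL3+ replicate 1, most of that sum was Hba-a1, at 117 and 6745 CPM with IL-3 and 3316 and 1575 CPM without. The 14 markers of maturing granulocytes summed to 1733 and 731 CPM with IL-3 and 1325 and 6233 CPM without. Most of the last value was Ngp, at 4003 CPM, whose groups overlapped. Of the tested markers of these 3 lists in the order given, 0 of 8, 0 of 10 and 0 of 12 passed the adjusted threshold in the edgeR test, and 0, 0 and 5 at an unadjusted p under 0.05. Of all genes, 0% and 5.91% passed. The 5 were S100a8, S100a9, Ltf, Camp and Ly6g, each higher in both Abl1ko/IL3- libraries. Of the 12 tested granulocyte markers, 3 had a log2 fold change below 0. The part of cell type makeup in the levels of the p53 target genes was not tested.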

How the data were processed

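RNA-seq of 4 libraries of 32Dcl3-Abl1ko cells was used, 2 with and 2 without IL-3, grouped by the labels. The design text calls the replicates biological, and no source ties them to clones. The authors depleted ribosomal RNA, sequenced on an Illumina HiSeq instrument, aligned reads to GRCm38 and summarized them with Rsubread and featureCounts, and deposited raw counts per gene. The authors also deposited FPKM values, which scale reads by gene length and depth. The submitters' processing notes also name STAR, Cuffdiff and mm10, with no role. The strand setting is not given in the sources used here, so genes that overlap on opposite strands are uncertain. Among counts from 1 to 20, 57.7% to 59.9% were even.

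Tests were run on the counts in R 4.3.3 by edgeR 4.0.16 (filterByExpr, TMM, quasi-likelihood F test, two-sided, Benjamini-Hochberg over all 16535 genes tested, threshold 0.05). Each standard error is the absolute log2 fold change over the square root of F. Gaps between libraries used log2(CPM + 0.1). For a single gene an exact permutation test of 2 against 2 cannot go below p = 0.333. Library totals ranged from 48953174 to 60382588 counts. p-values measure the spread between these libraries. The steps were run on simulated counts in which all genes shared the same spread. That spread was not set to copy the replicate gaps seen here, so the run does not test the steps on such data.

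Alternatives were DESeq2 1.42.0, library size only, RLE factors, no filter, 10 counts in every library, the replicate block, limma 3.58.1 on log2(FPKM + 1) and log2(FPKM + 0.1), and leaving out each library. The crossed pairing was chosen after seeing the data. The members and lists were chosen with earlier results of these data known. All 10 members were named, with Trp53, Mdm4, Cdkn1a, Bax, Bbc3, Fas and Gadd45a whatever their values, and from each list the largest rise and fall with groups that did not overlap; Cdkn2a and Pmaip1 were not analysed here. Further names were chosen after their values were seen. Promoter windows came from RefSeq and overlaps of exons from GENCODE M21.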

Additional observations from a re-analysis of the deposited data

How the results depend on the processing

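No p53 target gene passed the adjusted threshold under any alternative run (DESeq2, library size only, RLE factors, no filter, 10 counts in every library, the replicate block, crossed pairs, limma on FPKM, or leaving out each library). With 10 counts in every library Phlda3 and Plk2 dropped out and 8 members were tested. Over all genes DESeq2 called 271 and edgeR without Abl1ko/IL3- replicate 1 called 15, and every other alternative called 0. At an unadjusted p under 0.05 the members passing were Phlda3 with no filter, Trp53inp1 without Abl1ko/IL3+ replicate 1, Phlda3 and Zmat3 without Abl1ko/IL3+ replicate 2, and Phlda3 without Abl1ko/IL3- replicate 1, beside 4.90%, 15.7%, 17.8% and 3.24% of all genes in those fits. With a library left out its group holds 1, which is assumed to vary like the other group.

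The median log2 fold change of the members, 0.061, ranged from -0.53 without Abl1ko/IL3+ replicate 2 to 0.52 without Abl1ko/IL3+ replicate 1. With 1 library left out, the log2 fold change ranged from -1.55 to 1.17 for Mdm2, from -0.81 to 0.75 for Ccng1, from -0.13 to 0.42 for Btg2, from -1.16 to 0.52 for Zmat3, from -0.73 to 1.99 for Trp53inp1, from -0.12 to 0.37 for Sesn2 and from -6.77 to 6.31 for Phlda3, whose 6.31, set against a library at 0 counts, depends on the prior count. Aen ranged from 0.065 to 0.58 and Tnfrsf10b from -0.56 to -0.39. Tnfrsf10b was at -0.29 with limma on log2(FPKM + 1). Mdm2 was at -0.056 with limma on log2(FPKM + 1) and at -0.083 on log2(FPKM + 0.1).

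Blocking on the replicate number gave a median of -0.058 and Mdm2 at -0.10, and unadjusted calls over all genes were 548 in place of 978. The deviations of same-numbered libraries correlated at -0.20, and no label ties the numbers to a clone or day. Crossed pairing, added after seeing the data, gave Mdm2 -0.10 and 1136 unadjusted and 0 adjusted calls. Depth limits only Plk2 and, in 3 libraries, Phlda3.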

Other observations

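Genes of the integrated stress response, which share Sesn2 with the p53 programme, were read from a list of 12, of which 11 were in the table and tested. None passed the adjusted threshold (edgeR), 2 passed at an unadjusted p under 0.05, and 7 had a log2 fold change above 0 and 4 below, with a median of 0.62. Over all genes 5.91% passed unadjusted, 7946 of 16535 were above 0, and the median was -0.027. Slc7a11, the cystine transporter, had 8.32 and 8.46 CPM with IL-3 and 47.4 and 96.2 CPM without, a log2 fold change of 3.10 ± 0.48 (SE, unadjusted p = 0.00132, adjusted p = 0.572, edgeR). Ddit3, which encodes the stress factor CHOP, was named after its value was seen. It had 19.0 and 29.4 CPM with IL-3 and 57.4 and 61.0 CPM without. The log2 fold change was 1.29 (unadjusted p = 0.0171, adjusted p = 0.727, edgeR). Another entry named Ddit3, within the same span and on the same strand, had 1 count in every library and was not tested. The largest fall was in Phgdh, an enzyme of serine synthesis, at -1.29 (adjusted p = 0.860, edgeR), which was 3.45-fold higher in Abl1ko/IL3+ replicate 2 than in replicate 1.

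Of 15 immediate early genes, the group that holds Btg2 in many cell types, 13 were tested and 0 passed with or without adjustment (edgeR). A log2 fold change above 0 was seen for 12 of the 13, with a median of 0.60. Over all genes it was above 0 for 7946 of 16535, with a median of -0.027. Several of the 13 had low counts, such as Nr4a1 at 0 to 54 and Egr1 at 17 to 59. Their median level stood 0.91 log2 units above the gene means in Abl1ko/IL3- replicate 2 and between -0.38 and -0.17 in the other 3 libraries. Fos, a subunit of AP-1, gave 19 and 12 reads in cells with IL-3 and 21 and 119 in cells without. Myc gave the largest fall, at -0.40 (adjusted p = 0.920, edgeR).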
